A study of Homo sapiens with 14 samples.

Results

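The BCL2 family sets the threshold at which a stressed cell permeabilises its mitochondria and dies by apoptosis. The 10 family genes described here were listed by name and not by a cut on their measured values, though earlier results of these data were known. The list was drawn from 24638 genes with a row in all 3 kinds of deposited table, and all 10 had a row in each. They fall into 5 pro-survival members (BCL2, BCL2L1, BCL2L2, MCL1 and BCL2A1), 2 pore-forming effectors (BAX and BAK1) and 3 BH3-only members (BBC3, PMAIP1 and BCL2L11). Pro-survival proteins hold the effectors and BH3-only proteins in check, freed effectors oligomerise in the outer mitochondrial membrane and release cytochrome c, and BH3-only proteins relay stress by binding to other members through a short helix, the BH3 domain. Senescent fibroblasts are known to resist apoptosis, and small molecules that occupy the groove of BCL2L1 (BCL-xL) and related proteins are used to kill them. BBC3 is also known as PUMA and PMAIP1 as NOXA.

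Poly(A)-selected RNA of IMR90 cells, primary human fetal lung fibroblasts, was sequenced in 7 groups, and only mRNA levels were examined here. I79 and I10 are isolates of these cells, each sampled young (proliferating) and old (passaged until replicative exhaustion). These 4 groups (I79 young, I79 old, I10 young and I10 old) had 1 pooled column of estimated transcript counts each, so that no SD can be given for them. I79 ICM was I79 treated with inflachromene, a small molecule that binds HMGB1 and HMGB2, in 2 libraries. WT (2 libraries, genotype wild type) and HMGB2 KD (2 libraries, HMGB2 depleted by siRNA) carry labels that name no ICM and give neither their isolate nor whether WT received a control siRNA. All groups were IMR90 cells in culture, and nothing in the labels says which replicates came from separate cultures. In HMGB2 KD against WT the p-values therefore measure the spread between these libraries, which may be technical. In old against young the 2 isolates serve as the replicates, which leaves 1 residual degree of freedom.

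Totals ran from 33561766 to 41168932 counts in the WT and HMGB2 KD libraries, from 14991385 to 20632959 estimated counts in the old and young columns, and were 13290131 and 10971132 reads in the ICM libraries. The labels held against their defining genes: HMGB2 stood at 27.1 and 27.3 CPM in the WT libraries but only 3.22 and 3.64 CPM in the knockdown libraries, and in old cells of both isolates CDKN1A was higher and LMNB1 lower than in young cells. CPM are counts scaled to library size, here by TMM unless another scale is named. For the ICM libraries they are scaled instead by the plain total over genes with a row in all kinds of table. The 8 fibroblast markers summed to between 12567 and 32896 CPM in every library or column, whereas the 4 epithelial markers summed to at most 0.752 CPM and the leukocyte markers other than CD68 to at most 0.233 CPM. CD68, a lysosomal protein that fibroblasts also make, was 38.3 and 38.5 CPM in the WT libraries, 44.1 and 49.6 CPM in the knockdown libraries, 21.4 and 23.2 CPM in young and 158 and 84.5 CPM in old cells of I79 and I10. The endothelial marker VWF reached 3.29 CPM. The part that CD68- or VWF-expressing cells could have in the results below was not tested.

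The coding stretch of the BH3 core is shown because it encodes the core of the helix through which BH3-only members bind other members, while the grouping above is by role. The core of a BH3 domain was searched for over the whole of each member's canonical coding sequence. The pattern was a leucine codon, any 3 codons, a glycine or alanine codon and an aspartate codon. It was found in 8 of 10 members, and had no match in the coding sequences of BCL2L2 and BCL2A1. A miss means only that this exact pattern is absent, not that the protein lacks a BH3 domain. Since 24.5% of 19884 canonical coding transcripts of the annotation also hold this loose pattern, a match is a description only. Each line gives 30 bases of GRCh37 on the coding strand, 5′ to 3′, with the leucine codon and the glycine or alanine and aspartate codons in capitals.
BCL2 (pro-survival, chr18:60985588-60985617, minus strand): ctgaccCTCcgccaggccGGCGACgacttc
BCL2L1 (pro-survival, chr20:30309731-30309760, minus strand): caagcgCTGagggaggcaGGCGACgagttt
MCL1 (pro-survival, chr1:150551347-150551376, minus strand): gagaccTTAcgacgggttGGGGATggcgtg
BAX (effector, chr19:49459038-49459067, plus strand): gagtgtCTCaagcgcatcGGGGACgaactg
BAK1 (effector, chr6:33543170-33543199, minus strand): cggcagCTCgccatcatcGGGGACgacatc
BBC3 (BH3-only, chr19:47729842-47729871, minus strand): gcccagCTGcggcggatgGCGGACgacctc
PMAIP1 (BH3-only, chr18:57569899-57569928, plus strand): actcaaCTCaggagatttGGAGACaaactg
BCL2L11 (BH3-only, chr2:111907674-111907703, plus strand): caagagTTGcggcgtattGGAGACgagttt
BBC3 is the only member of these 8 with an alanine codon (GCG) in place of the glycine codon, and all 8 stretches lie within a single coding exon.

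Levels per length were ordered within each kind of table, since the tables were counted in different ways. In the WT libraries, RPKM (counts scaled to library size and exon length) placed MCL1 at the top with 95.9 and 91.4, followed by BAX with 62.7 and 51.9, PMAIP1 with 26.2 and 22.6, and BCL2L1 with 18.3 and 18.5. BCL2L2 (12.8 and 13.1 RPKM), BAK1 (8.45 and 8.27 RPKM), BBC3 (4.86 and 4.05 RPKM) and BCL2L11 (1.66 and 1.45 RPKM) came next, and BCL2 was last with 0.0695 and 0.138 RPKM. The values of neighbours in this order did not overlap, except that BCL2A1, with 17.4 and 7.11 RPKM, spanned those of BCL2L2 and BAK1. In HMGB2 KD the values of BCL2L2 (10.9 and 10.7 RPKM) and BAK1 (9.48 and 13.2 RPKM) overlapped, and BCL2A1, with 4.09 and 1.13 RPKM, overlapped BCL2L11 with 1.36 and 1.17 RPKM.

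In the old and young columns, BAX was the highest member on the TPM scale, at 205 and 227 TPM in I79 young and I10 young. MCL1 followed at 113 and 127 TPM. BCL2L2, BCL2L1 and PMAIP1 lay close together in young cells, between 23.3 and 33.0 TPM, and BCL2 and BCL2A1 were under 0.4 TPM, so that BCL2 itself was among the scarcest members of its family in both isolates. The pro-survival sum was therefore mostly MCL1 in young cells, with 65.4% in I79 and 67.0% in I10 of the summed TPM, and a summed level per length says nothing of protein.

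**Figure D1:**
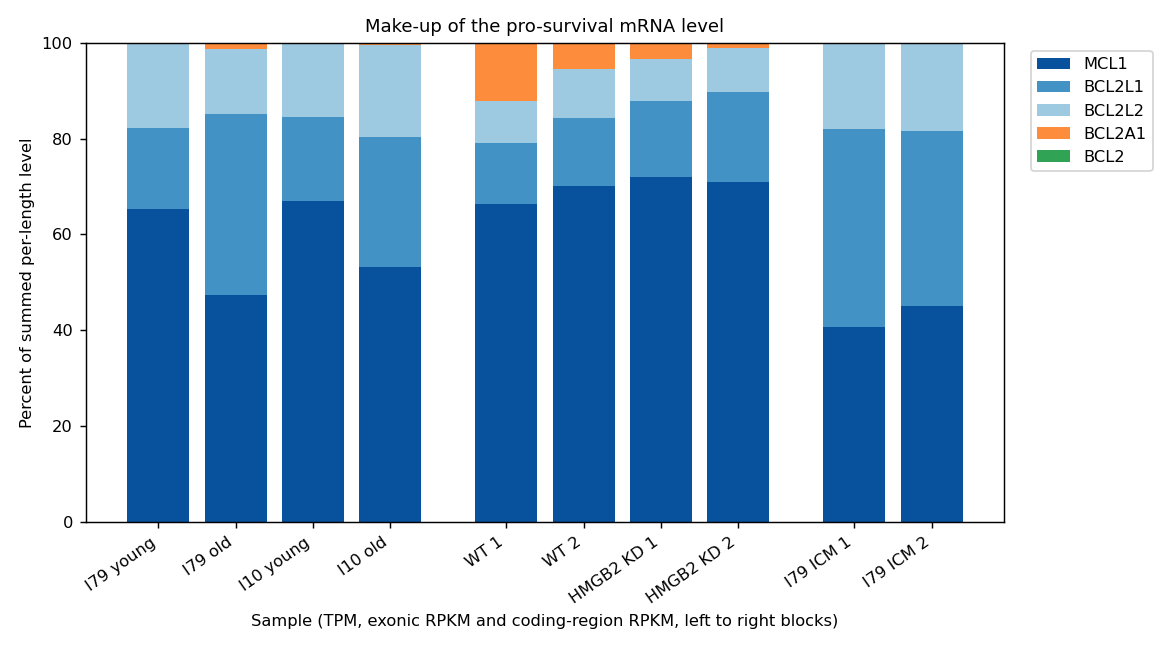
Stacked bars give the percent of the summed per-length level of the 5 pro-survival genes held by each gene (y axis, 0 to 100 percent) in each pooled column or library (x axis), in TPM for old and young, exonic RPKM for WT and HMGB2 KD and coding-region RPKM for ICM. BCL2L1 takes 37.9% and 27.0% of the sum in I79 old and I10 old against 16.9% and 17.4% in I79 young and I10 young, and BCL2A1 is visible in WT (12.1% and 5.46%) and shrinks to 3.26% and 0.970% in HMGB2 KD.

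Old against young cells asks which family genes differ at replicative senescence. BCL2L1 and PMAIP1, a pro-survival and a pro-death gene, both rose in old cells, and no member was called lower. Calls required an absolute log2 fold change above 0.6 and an adjusted p under 0.01 (Benjamini-Hochberg over all genes tested, edgeR's quasi-likelihood test). With isolate as a covariate, 2 of the 9 members that passed the filter on low counts were called, against a background of 9.57% of 15116 genes in either direction (5.75% higher and 3.82% lower). An unadjusted p under 0.05 was reached by 7 of the 9 members and by 45.4% of all genes tested. The 869 genes called higher and 578 called lower became 1019 and 2111 when columns were scaled by plain totals, which shifted the median of all genes from -0.01 to -0.22. In bulk RNA, fewer cells that express a gene and less RNA of it per cell cannot be told apart.

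BCL2L1 was 37.8 CPM in I79 young and 144 CPM in I79 old, and 39.2 CPM in I10 young and 87.8 CPM in I10 old. The old columns lay above the young ones in both isolates, with a log2 fold change of 1.55 (SE 0.20, edgeR adjusted p = 0.0092). The increase was 1.93 in I79 (95% counting interval 1.80 to 2.06) and 1.16 in I10 (1.04 to 1.29), so that the intervals of the isolates did not overlap. These intervals are exact and cover counting error only. Without the isolate covariate the call was lost narrowly (log2 fold change 1.59, edgeR adjusted p = 0.010).

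The other pro-survival genes did not pass. MCL1, a short-lived protein that restrains BAK1, was 250 and 297 CPM in young and old I79 and 267 and 283 CPM in young and old I10, a log2 fold change of 0.17 (SE 0.11, edgeR adjusted p = 0.31) that turned to -0.04 when columns were scaled by their plain totals. BCL2L2 (BCL-w) was 51.3 and 63.1 CPM in I79 and 48.5 and 85.9 CPM in I10. It gave a log2 fold change of 0.56 (SE 0.16, edgeR adjusted p = 0.051), and its reads cannot be told from those of the readthrough gene BCL2L2-PABPN1 where the sequence is shared.

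BCL2 was read 17 and 49 times in young and old I79 and 24 and 37 times in young and old I10, or 1.09, 2.66, 1.25 and 2.04 CPM. Old values were above young ones in both isolates, but the counts were few and the log2 fold change of 0.99 (SE 0.38) had an adjusted p of 0.11 by edgeR. BCL2A1 (BFL-1), an NF-κB-responsive member, was left out by the filter on low counts. It had 2 and 32 estimated counts in young and old I79, a log2 ratio of 3.76 with a 95% counting interval of 1.79 to 6.87, and 3 and 5 in young and old I10, a log2 ratio of 0.82 with an interval of -1.54 to 3.51. Only the I79 interval lay above 0, and the intervals of the isolates overlapped.

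The effectors diverged in sign without a call. BAX was 79.4 and 112 CPM in young and old I79 and 79.8 and 100 CPM in young and old I10 (log2 fold change 0.41, SE 0.10, edgeR adjusted p = 0.040). BAK1 was 22.9 and 11.9 CPM in I79 and 18.2 and 12.7 CPM in I10, with a log2 fold change of -0.73 (SE 0.17, edgeR adjusted p = 0.034). In CPM, old BAX lay above and old BAK1 below young values in both isolates. BAK1 passed the thresholds under plain column totals (log2 fold change -0.94, edgeR adjusted p = 0.0062). BAK1 supplied 8.44% and 6.31% of the summed effector TPM in I79 young and I10 young and 3.21% and 3.85% in I79 old and I10 old.

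Among BH3-only genes, PMAIP1 was 26.2 CPM in I79 young and 78.7 CPM in I79 old, and 24.3 CPM in I10 young and 59.6 CPM in I10 old. It rose in both isolates, by 1.58 in I79 (interval 1.42 to 1.75) and by 1.30 in I10 (interval 1.14 to 1.46), with a log2 fold change of 1.44 (SE 0.12, edgeR adjusted p = 0.0047). BBC3 was 6.66 and 22.0 CPM in young and old I79 and 6.57 and 12.4 CPM in young and old I10. Its old values were the higher ones in both isolates, yet the log2 fold change of 1.32 (SE 0.25) missed the threshold with an adjusted p of 0.020 by edgeR, and it was 0.99 (edgeR adjusted p = 0.060) when only protein-coding transcripts were summed. DESeq2 called BBC3 at an adjusted p of 0.0063.

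BCL2L11 (BIM), which binds every pro-survival member, went the other way. It was counted 173 and 127 times in young and old I79 (11.1 and 6.89 CPM) and 212 and 28 times in young and old I10 (11.1 and 1.55 CPM). Old values were lower in both isolates, by -0.68 in I79 (interval -1.03 to -0.35) and by -2.84 in I10 (interval -3.46 to -2.26), which set its log2 fold change of -1.63 (SE 0.53) at an adjusted p of 0.075 by edgeR. The I10 column decides the size of this value. The change in I79 minus that in I10 was 2.15 on the log2 scale, the widest gap of the 9 members. Of these 9, BCL2L1 (0.77), BBC3 (0.81) and BCL2L11 differed between isolates by more than 0.6, as did 21.0% of all genes tested. Nearly all BCL2L11 counts (at least 95.4% in each of the 4 columns) lay on its canonical transcript, BCL2L11-204, and the antisense-strand gene MIR4435-2HG overlaps the gene. In I10 old, with 28 counts, that transcript held only 56.5% of the gene's TPM. There 1.3 estimated counts on BCL2L11-203 made up 43.5% of the TPM, so transcript shares in this column rest on few reads.

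**Figure D2:**
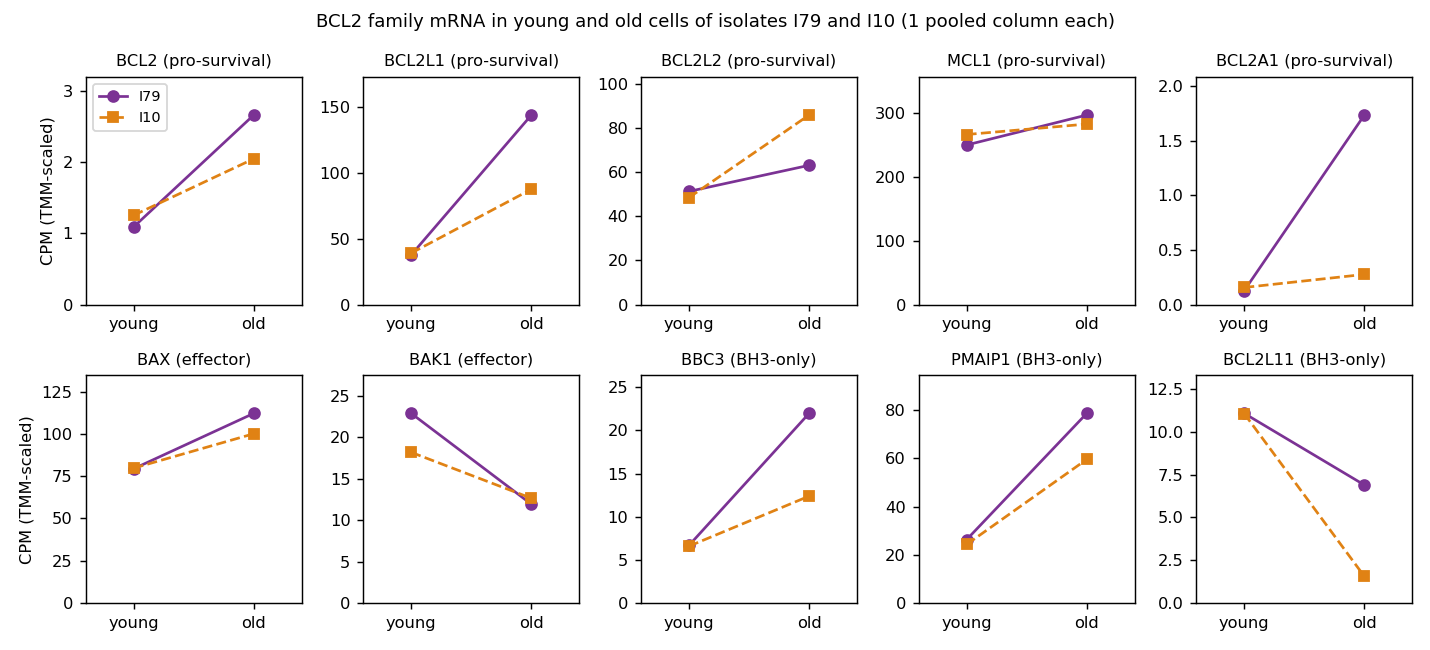
Each panel plots 1 gene in TMM-scaled CPM (y axis, from 0) in young and old cells (x axis), with I79 as circles on a solid line and I10 as squares on a dashed line, 1 pooled column per point. Old points lie above young ones for BCL2L1, PMAIP1 and BBC3 and under them for BAK1 and BCL2L11 in both isolates, and the I10 line of BCL2L11 ends at 1.55 CPM.

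All 9 members tested kept 1 sign in both isolates, while 19.1% of all genes tested had opposite signs. Of the 9, BCL2, BCL2L1, BBC3 and PMAIP1 were higher by more than 0.6 in both isolates, against 14.1% of all genes tested. The median log2 fold change over the 9 was 0.56, beside -0.01 over all genes tested. Per length, the pro-survival sum went from 172 to 258 TPM in I79 and from 189 to 212 TPM in I10. The BH3-only sum went from 36.99 to 93.6 TPM in I79 and from 35.1 to 63.2 TPM in I10. The effector sum went from 224 to 278 TPM in I79 but from 242 to 236 TPM in I10. On this scale BAX was 227 TPM in both young and old I10, although its CPM were higher in old I10. BAX over BCL2L1 was 7.06 in I79 young and 2.74 in I79 old, and 6.89 in I10 young and 3.96 in I10 old. BAX over MCL1, the most abundant pro-survival gene, went the other way, from 1.82 to 2.20 in I79 and from 1.79 to 2.02 in I10. Each of these ratios is a single value per column with no replicate error. The TPM include noncoding and decay-prone transcripts, which held 24.7% and 39.8% of BAX TPM in young and old I79. In I10 they held 28.0% and 25.4%. The decay form BAX-211 went from 0 to 46.6 TPM in I79 and from 28.3 to 13.2 TPM in I10. Of MCL1 TPM, noncoding and decay-prone transcripts held 2.765% and 4.042% in young and old I79 and 6.927% and 4.981% in young and old I10. The rise of BAX over MCL1 in I79 is therefore not shown for coding transcripts, whose ratios were not taken.

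Transcripts were compared next because several members are spliced to products of opposite action. The long form of BCL2L1 encodes pro-survival BCL-xL and the short form pro-death BCL-xS, while MCL1-205 lacks a stretch of the coding sequence upstream of the BH3 core. The junctions that set the short forms apart are shown with the downstream sequence in capitals, on the minus strand of GRCh37, 15 bases on each side.
BCL2L1-201 (long, chromosome 20, donor 30309458, acceptor 30253889): gagaacggcggctggGATACTTTTGTGGAA
BCL2L1-202 (short, chromosome 20, donor 30309647, acceptor 30253889): cagagctttgaacagGATACTTTTGTGGAA
MCL1-205 (shorter coding sequence, chromosome 1, donor 150551899, acceptor 150551439): ggagggcgacttttgGCCACCGGCGCCAAG
The BCL2L1 forms share their acceptor and differ in the donor, which leaves coding sequences of 699 and 510 bases.

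Short BCL2L1 transcripts held 7.24% of the gene's estimated counts in I79 young (95% Wilson interval 5.45 to 9.66) and 9.48% in I79 old (8.42 to 10.7). In I10 they held 15.6% in young cells (13.2 to 18.3) and 6.82% in old cells (5.66 to 8.15). The intervals of young and old cells overlapped in I79 and lay apart in I10, where the old share was the lower one, and in all 4 columns the long form held at least 82.5%. Long-form counts were 539 and 2398 in young and old I79 and 619 and 1474 in young and old I10. The intervals leave out the error of assigning reads to transcripts, which was not given.

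MCL1-205 held 16.4% of MCL1 counts in I79 young (interval 15.3 to 17.6), 7.02% in I79 old (6.37 to 7.72), 7.23% in I10 young (6.54 to 7.96) and 8.11% in I10 old (7.39 to 8.89). I79 young thus stood apart from the other columns, I10 young among them. MCL1-201 had 0 estimated counts in I79 young and 9.6 to 14.9 elsewhere.

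BBC3 transcripts shifted in the same direction in both isolates. Retained-intron forms (BBC3-205 and BBC3-206) went from 6.92% of BBC3 counts (interval 3.30 to 13.2) to 21.9% (18.2 to 26.3) in I79 and from 13.3% (8.60 to 20.5) to 36.6% (30.6 to 43.1) in I10. The canonical coding form BBC3-203 went from 11.4% (6.73 to 19.1) to 24.7% (20.7 to 29.1) in I79 and from 4.603% (2.20 to 10) to 24.2% (19.0 to 30.1) in I10. BBC3-202, the most counted form in young cells, was correspondingly lower in share, at 76.4% and 51.9% in young and old I79 and at 57.8% and 34.6% in young and old I10. In counts BBC3-202 was 79.5 and 210.1 in young and old I79 and 72.8 and 77.6 in young and old I10.

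The shorter coding form BAK1-202 showed no common direction, with 14.7% and 21.6% of BAK1 counts in young and old I79 and 29.2% and 6.86% in young and old I10. Noncoding and decay-prone forms of BAX held between 22.2% and 28.7% of its counts in the 4 columns. Of its TPM they held 24.7% and 39.8% in young and old I79 and 28.0% and 25.4% in young and old I10. PMAIP1 counts lay almost wholly on its canonical transcript, PMAIP1-202, with 92.1% to 99.0%.

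HMGB2 KD against WT asks which family genes differ after siRNA against HMGB2. Since a control siRNA in WT is not stated, loss of HMGB2 and exposure to siRNA cannot be told apart. BCL2A1 was lower in HMGB2 KD and was the 1 member of 10 called, against a background of 5.20% of 15338 genes in either direction (2.86% higher and 2.34% lower), with 23.9% at an unadjusted p under 0.05. Under plain library totals the 438 genes called higher and 359 called lower became 385 and 484, with BCL2A1 still called. BCL2A1 was 17.4 and 7.07 CPM in the WT libraries, against 4.07 and 1.13 CPM in the knockdown libraries. Both knockdown libraries lay under both WT libraries, although replicates within each group also stood far apart, and the log2 fold change was -2.24 (SE 0.46, edgeR adjusted p = 0.0063). Without HMGB2 KD replicate 2 the call was lost (log2 fold change -1.58, edgeR adjusted p = 0.058), and DESeq2 on all 4 libraries gave an adjusted p of 0.14. Leaving out HMGB2 KD replicate 1 gave -3.44 and leaving out WT replicate 1 gave -1.45, both called by edgeR.

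The remaining pro-survival genes were not called. BCL2 had 30 and 65 counts in WT and 70 and 141 in HMGB2 KD (0.876 and 1.74 against 1.91 and 3.54 CPM). Its log2 fold change of 1.05 (SE 0.41, edgeR adjusted p = 0.13) ranged from 0.55 to 1.63 as libraries were left out. BCL2L1 was 76.9 and 77.5 CPM in the WT libraries, against 83.4 and 91.7 CPM in the knockdown libraries, with a log2 fold change of 0.18 (SE 0.12, edgeR adjusted p = 0.42). The knockdown values of both genes lay above those of WT.

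MCL1 was 597 and 569 CPM in the WT libraries, against 562 and 516 CPM in the knockdown libraries (log2 fold change -0.11, SE 0.14, edgeR adjusted p = 0.70). BCL2L2 was 62.1 and 63.5 CPM in the WT libraries, against 53.0 and 51.7 CPM in the knockdown libraries (log2 fold change -0.26, SE 0.12, edgeR adjusted p = 0.21). For these genes the knockdown values lay under those of WT.

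Of the effectors, BAX was 162 and 134 CPM in the WT libraries, against 124 and 160 CPM in the knockdown libraries. It was the only member whose groups overlapped, and its log2 fold change of -0.06 (SE 0.15, edgeR adjusted p = 0.87) took either sign as single libraries were left out. BAK1 was 18.7 and 18.3 CPM in the WT libraries, against 20.98 and 29.3 CPM in the knockdown libraries (log2 fold change 0.44, SE 0.16, edgeR adjusted p = 0.11), with HMGB2 KD replicate 2 well above the rest.

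PMAIP1 was 57.3 and 49.4 CPM in the WT libraries, against 77.1 and 76.9 CPM in the knockdown libraries. The knockdown libraries nearly coincided and lay above WT, with a log2 fold change of 0.53 (SE 0.13, edgeR adjusted p = 0.016) that missed both thresholds. BBC3 was 15.5 and 12.9 CPM in the WT libraries, against 15.5 and 27.1 CPM in the knockdown libraries, so that replicate 1 of the knockdown matched the upper WT library and replicate 2 stood above it. Its log2 fold change of 0.59 (SE 0.22, edgeR adjusted p = 0.10) was 0.13 without HMGB2 KD replicate 2 and 0.92 without replicate 1, where it was called (edgeR adjusted p = 0.0037).

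BCL2L11 was 11.2 and 9.75 CPM in the WT libraries, against 9.18 and 7.88 CPM in the knockdown libraries, all knockdown values being lower (log2 fold change -0.30, SE 0.18, edgeR adjusted p = 0.35). In 9 of 10 members (BBC3 only narrowly so) the groups did not overlap, as for 53.8% of all genes tested, and 5 members were higher and 5 lower by fold change. The median over the 10 was 0.06, beside 0.00 over all genes tested. Neither BCL2L1 nor PMAIP1, the genes called in old cells, was called in HMGB2 KD, and the difference between these comparisons was not tested.

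**Figure D3:**
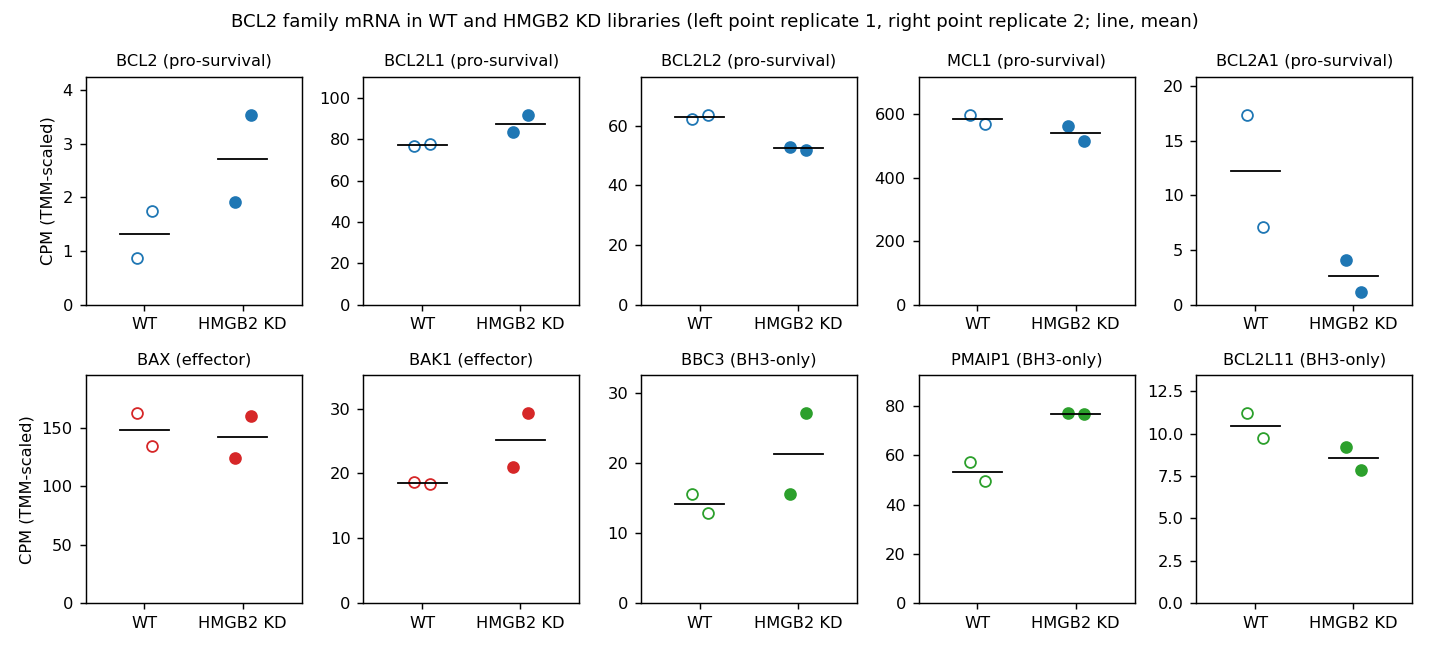
Each panel plots 1 gene in TMM-scaled CPM (y axis, from 0) in the WT libraries (open points) and HMGB2 KD libraries (filled points), with a line at each group's mean (n = 2). BCL2A1 falls from 17.4 and 7.07 CPM to 4.07 and 1.13 CPM, PMAIP1 sits at 77.1 and 76.9 CPM in HMGB2 KD above WT, and BAX overlaps between groups.

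**Figure D4:**
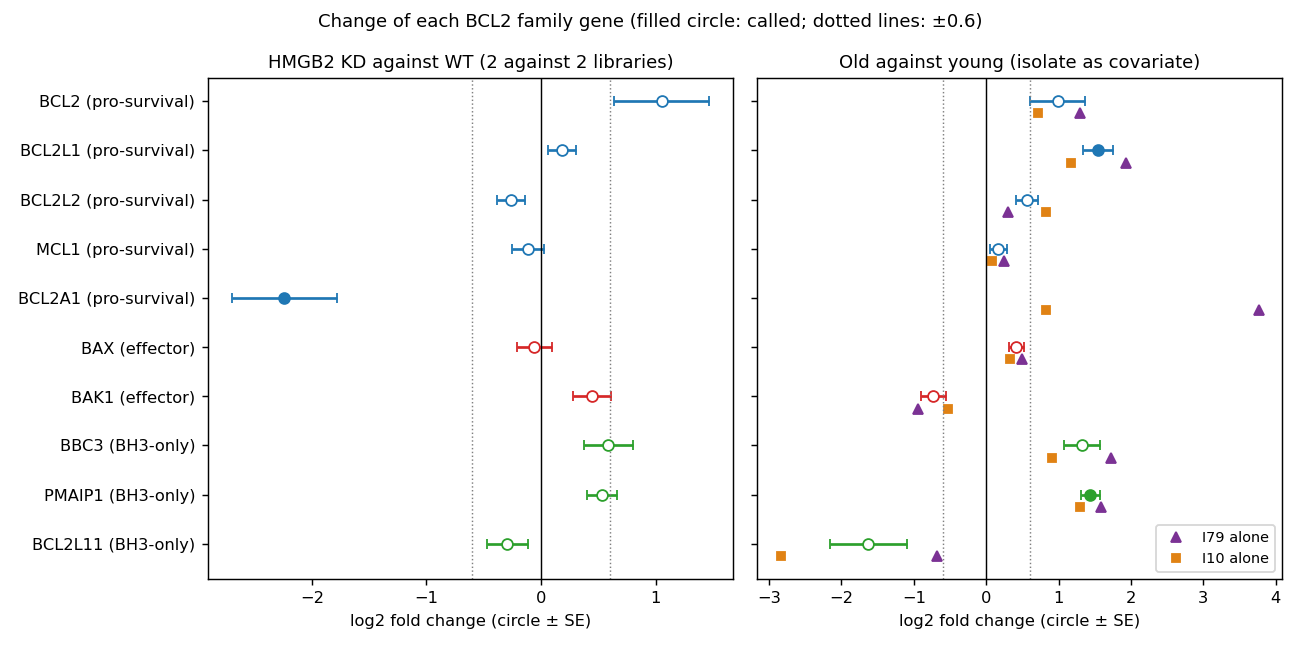
Circles with bars give the log2 fold change ± SE of each member (x axis) for HMGB2 KD against WT (left) and old against young (right), filled where called; triangles and squares on the right give I79 and I10 alone, and dotted lines mark 0.6 in either direction. Filled circles are BCL2A1 at -2.24 on the left and BCL2L1 at 1.55 and PMAIP1 at 1.44 on the right, and the I79 and I10 marks of BCL2L11 lie at -0.68 and -2.84.

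Genes around the family were taken from 4 lists of 61 genes in all: other BCL2 relatives, the mitochondrial pathway with caspases, death receptor signalling and regulators of the members. In old against young cells 54 were tested, and 11 were called (7 higher and 4 lower), beside 9.57% of all genes tested (5.75% higher and 3.82% lower). Their median log2 fold change was 0.14, beside -0.01 over all genes tested. Of the other relatives, 2 of 8 were called, both higher. BNIP3, a mitophagy receptor with a BH3-like stretch, rose in I79 from 140 to 524 CPM and in I10 from 162 to 550 CPM (log2 fold change 1.83, SE 0.12, edgeR adjusted p = 0.0037). BNIP3L (NIX), its paralog, rose in I79 from 171 to 411 CPM and in I10 from 181 to 467 CPM (1.32, SE 0.12, edgeR adjusted p = 0.0048).

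In the mitochondrial and caspase list 3 of 20 were called (1 higher and 2 lower), beside 9.57% of all genes tested, and the median log2 fold change was -0.19, beside -0.01 over all genes. BIRC3 (cIAP2), an NF-κB-responsive ubiquitin ligase that blocks death signalling, was 0.832 and 16.8 CPM in young and old I79 and 1.62 and 13.9 CPM in young and old I10, a log2 fold change of 3.63. BIRC5 (survivin), made mainly in dividing cells, fell by 2.24 on the log2 scale, and CASP2, an initiator caspase, fell by 1.03. CYCS, cytochrome c itself, was -0.62 and not called (edgeR adjusted p = 0.035). Without the isolate covariate BIRC5 was no longer called (edgeR adjusted p = 0.014).

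In the death receptor list 4 of 12 were called, all higher, beside 5.75% of all genes tested called higher, and the median log2 fold change was 0.81, beside -0.01 over all genes. They were TNFRSF10B (DR5), a receptor for TRAIL (0.95), TNFRSF10D, a TRAIL decoy receptor (1.17), the adaptor TRADD (1.19) and CFLAR (c-FLIP), the inhibitor of caspase-8 (1.08, lost without the isolate covariate at an adjusted p of 0.010 by edgeR). TNFRSF10B was the 1 death-signalling receptor called. Of the regulators 2 of 14 were called, both lower, beside 3.82% of all genes tested called lower, among them E2F1, a transcription factor of the cell cycle, which fell by 1.32 at an adjusted p that edgeR put at 0.00997 and DESeq2 at 0.011, where it was no longer called.

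In HMGB2 KD against WT 54 of the 61 were tested, and 4 were called (1 higher and 3 lower), beside 5.20% of all genes tested (2.86% higher and 2.34% lower). The median log2 fold change was 0.01 over these genes and 0.00 over all genes tested, and CYCS and BOK are given here. CYCS was 148 and 121 CPM in the WT libraries, against 85.1 and 83.8 CPM in the knockdown libraries (-0.67, SE 0.14, edgeR adjusted p = 0.0057), a call that was lost without WT replicate 1 (-0.52, edgeR adjusted p = 0.13), without HMGB2 KD replicate 1 (adjusted p = 0.016) and without HMGB2 KD replicate 2 (adjusted p = 0.035). BOK, an effector-like relative of BAX and BAK1, was 27.7 and 28.5 CPM in the WT libraries, against 43.0 and 57.2 CPM in the knockdown libraries (0.83, SE 0.15, edgeR adjusted p = 0.0027), which was lost without HMGB2 KD replicate 2 (0.62, edgeR adjusted p = 0.020). No gene of the death receptor list (11 tested, 4 at an unadjusted p under 0.05) or of the regulators (15 tested, 2 at an unadjusted p under 0.05) was called by edgeR.

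I79 ICM was set beside I79 young without a test, because the ICM reads were counted per transcript region and in a different way. Over 13153 shared genes compared, 58.6% lay more than 0.6 log2 units apart. WT, labelled without ICM, differed from I79 young by as much in 41.5% of these genes, whereas I10 young, counted like I79 young, did so in 6.68%. Treatment and counting cannot be told apart, and 6 of 10 members passed 0.6 in the ICM libraries, 6 in WT and 0 in I10 young. Those in the ICM libraries include BCL2, which had only 3 and 10 reads there. CPM in this comparison are scaled by the plain total over shared genes.

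BCL2L1 was 43.1 CPM in I79 young, 92.2 and 88.5 CPM in the ICM libraries and 83.4 and 84.0 CPM in WT, so that its log2 ratio to I79 young was 1.06 with ICM and 0.96 in WT. PMAIP1 was 29.9 CPM in I79 young, 66.6 and 54.6 CPM with ICM and 62.1 and 53.6 CPM in WT (log2 ratios 1.01 and 0.95), and BAX was 90.5, 144 and 138, and 176 and 145 CPM in the same order (0.64 and 0.82). The ratios of these 3 genes were of like size in ICM and WT. The label-check genes also differed between WT and I79 young, with log2 ratios of 1.66 for CDKN1A, -1.94 for LMNB1 and -2.23 for HMGB2. WT therefore does not show the counting difference by itself, and why the ratios were alike was not tested.

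MCL1 behaved otherwise: it was 285 CPM in I79 young, 148 and 150 CPM with ICM and 647 and 616 CPM in WT, with log2 ratios of -0.94 and 1.15. BBC3 was 7.59 CPM in I79 young, 6.84 and 5.74 CPM with ICM and 16.8 and 14.0 CPM in WT (-0.27 and 1.00). The signs of ICM and WT were opposite for both genes.

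BCL2L11 was 12.6 CPM in I79 young, 5.52 and 9.03 CPM with ICM and 12.1 and 10.6 CPM in WT, and the ICM replicates, at 71 and 96 reads, stood apart from each other. BCL2L2 was 58.4, 83.9 and 82.2, and 67.3 and 68.8 CPM in the same order, and BAK1 was 26.1, 31.9 and 36.3, and 20.3 and 19.8 CPM. BCL2, with 3 and 10 reads, and BCL2A1, with 0.5 and 1.5 fractional reads, were too few with ICM to set a level. BCL2A1 in WT was 18.8 and 7.66 CPM against 0.146 CPM in I79 young, a log2 ratio of 5.70 between groups neither of which is labelled with ICM.

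The ICM ratios also moved with the transcript regions counted. Coding reads were 61.1% and 61.9% of all ICM reads, but 15.0% and 15.2% for BCL2L2, 16.8% and 19.8% for PMAIP1 and 79.9% and 76.8% for BAX, members whose coding sequence makes up 16.4%, 8.53% and 72.5% of the canonical transcript. The I79 young column holds whole-transcript counts, so that counting only coding-region and noncoding-transcript reads altered the ICM side alone, and each shift follows from the share of a gene's ICM reads that were coding. Counted so, the log2 ratio to I79 young turned from 0.51 to -1.59 for BCL2L2, from 0.38 to -0.55 for BAK1 and from 1.01 to -0.81 for PMAIP1. BCL2L1 went from 1.06 to 0.23, BAX from 0.64 to 0.92 and MCL1 from -0.94 to -1.77.

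**Figure D5:**
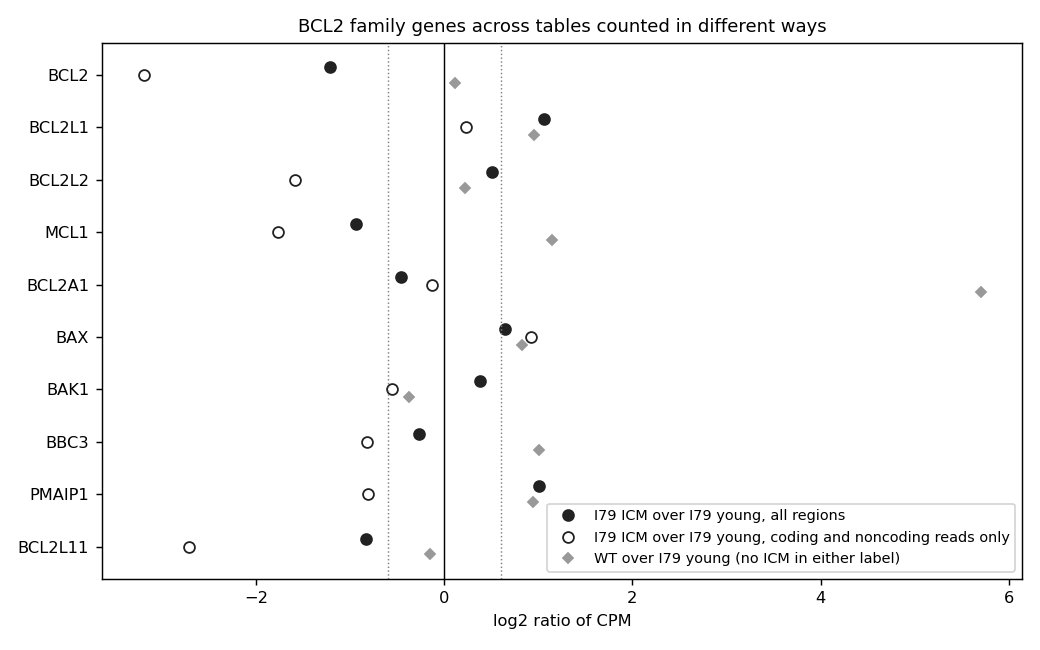
The log2 ratio of CPM to I79 young (x axis) is plotted for each member (y axis) for I79 ICM with all reads (filled circles), I79 ICM with coding and noncoding-transcript reads only (open circles) and WT (diamonds); dotted lines mark 0.6 in either direction. Filled and open circles lie on opposite sides of 0 for BCL2L2, BAK1 and PMAIP1, and the BCL2A1 diamond lies at 5.70.

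Within the ICM libraries, levels were also taken as RPKM of coding reads over the canonical coding sequence. BAX was highest at 317 and 288, followed by PMAIP1 at 109.5 and 104 on its very short coding sequence, and MCL1 at 78.0 and 84.1 overlapped BCL2L1 at 78.98 and 68.2. BCL2L2 (34.5 and 33.7), BAK1 (28.8 and 28.4), BBC3 (8.09 and 6.86) and BCL2L11 (2.70 and 3.72) followed without overlap between neighbours. BCL2L1 made up 41.2% and 36.6% of the pro-survival sum on this scale and MCL1 40.7% and 45.1%, which is not comparable with the TPM shares of young cells.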

How the data were processed

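Groups were taken from the sample titles. Raw counts per gene were deposited for the WT and HMGB2 KD libraries, with the STAR aligner (2.6.0c), featureCounts and GRCh37 in the submitters' processing notes. The tables end with totals of another counter (16.9% to 18.0% of counts, left out), so use of strand is unsettled for genes that overlap an antisense partner (BCL2, BCL2L1, BCL2L2, MCL1, BAK1, BBC3 and BCL2L11). For old and young cells the authors deposited estimated counts and TPM per transcript, 1 column per group although titles list 2 replicates, treated as the authors' pooled value. For ICM the authors deposited estimated counts per gene and region, whose aligner and build are not given in the sources used here. A deposited table of the authors' own fold changes and p-values was not used. No column of per-sample values was left unmapped (0).

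Transcripts were summed to genes with GENCODE release 44 on GRCh37 (97.7% of identifiers, 97.2% to 97.4% of reads) and rounded. edgeR 4.0.16 (R 4.3.3; quasi-likelihood test, TMM, filterByExpr) compared HMGB2 KD with WT (2 against 2) and old with young (isolate as covariate, so the isolates act as the replicates), with DESeq2 1.42.0 as an alternative. Scripts were tested on simulated data. CPM ratios across tables used a prior count of 2. Figures were drawn with matplotlib 3.10.9. Adjusted p-values cover all genes tested. The standard error is the fold change over the square root of F. Intervals (95%) are exact for ratios and Wilson for shares, and cover counting error only, since reads carry no molecular identifiers. All 10 members were named, and the called genes of the pathway lists except a few that are not reported here. The members, lists and tests were chosen with earlier results of these data known. Replicates differed by more than counting noise (chi-square per degree of freedom 24.7 in WT, 37.6 in HMGB2 KD and 2.10 in ICM). Alternatives covered scaling, filters, DESeq2, a RUVs factor, the replicate block, thresholds, transcript classes and libraries left out. Plain totals were added after seeing the data.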

Additional observations from a re-analysis of the deposited data

Results flagged for a closer look

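Of the family and pathway genes tested in old against young cells, 4 had log2 ratios of opposite sign in I79 and I10, and in BMF alone did both counting intervals leave out 0. Each isolate had 1 column per age, so the difference between isolates was not tested. BMF, a BH3-only relative, had 127 and 236 estimated counts in young and old I79 (log2 ratio 0.66, 95% counting interval 0.34 to 0.98) and 167 and 107 in young and old I10 (-0.56, interval -0.92 to -0.20), a difference of 1.21. BID, the BH3-only protein that caspase-8 cleaves, was -0.12 in I79 (interval -0.29 to 0.06) and 0.84 in I10 (interval 0.68 to 1.01), a difference of -0.96. CASP9, the initiator caspase of the mitochondrial route, was -0.42 in I79 (interval -0.77 to -0.07) and 0.02 in I10 (interval -0.29 to 0.33), a difference of -0.43. TNFRSF1A, the main TNF receptor, was -0.03 in I79 and 0.04 in I10, a difference of -0.067, with both intervals holding 0. Among all genes tested, 19.1% had opposite signs.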

How the results depend on the processing

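In HMGB2 KD against WT, the 1 member called became 0 under DESeq2 and ranged from 0 to 2 as single libraries were left out. Pathway genes called ranged from 2 to 4 and all genes called from 312 to 999 (797 in the full comparison) over the same leave-outs, with the lowest counts without HMGB2 KD replicate 2. BAX ranged from -0.25 to 0.10 on the log2 scale. With the replicate number as a block, 1 member and 4 pathway genes were called, and all genes called went to 1243. Deviations of the same-numbered libraries correlated at 0.12 over 15338 genes, and with 2 pairs the samples share only a number. Plain library totals changed the split of called genes from 438 higher and 359 lower to 385 and 484.

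In old against young, members called went from 2 to 5 with no filter on low counts, 4 at an adjusted p under 0.05 and 1 with no replicate block (no isolate covariate). Pathway genes called went from 11 to 23, 21 and, with plain column totals, 18. All genes called went from 1447 to 4251 with no filter, 3860 at the looser threshold and 3130 with plain column totals, where the split went from 869 higher and 578 lower to 1019 and 2111, the median over all genes shifted from -0.01 to -0.22 and MCL1 turned to -0.044. BCL2L1 was called in 8 of 9 fits and PMAIP1 in 9 of 9. Coding-region counting, which alters the ICM side alone, turned the ICM ratios of BCL2L2 (-1.59), BAK1 (-0.55) and PMAIP1 (-0.81). The cause of these changes was not tested beyond what each setting alters. Depth limits BCL2, with at most 141 counts in any library or column, and BCL2A1, with at most 32 in old and young cells.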
